A study of Mus musculus with 2 samples.

Results

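Müller glia are the last cell type that retinal progenitor cells (RPCs) produce, and the 10 genes described here, out of 30905 genes listed in both deposited matrices, serve the work of these cells or appear as they mature. They were taken by symbol and grouped from background knowledge, not from their levels here. Vim, Slc1a3, Dkk3 and Car2, known from progenitors as well as glia, are called early glial genes. Rlbp1, Glul, Aqp4, Car14, Apoe and Clu are called late functional genes. All 10 had a row in both libraries. Mature Müller glia span the retina, take up and recycle neurotransmitter glutamate, regulate potassium, water and pH, and return retinoid to photoreceptors. During the transition from RPC to Müller glia, progenitor transcripts decline while the transcripts for these functions accumulate, and both cell types share a part of their transcriptome.

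The cells came from retinas of mouse pups at postnatal day 7. In Mettl3-CKO pups, floxed Mettl3 was deleted by Six3-Cre, a transgene that is active in RPCs of the embryonic retina. Glial and neuronal progeny of RPCs that lost Mettl3 are mutant too. Cells that do not descend from these RPCs, such as microglia, are not targeted. The paper reports efficient knockout in the central retina, while whole retinas were used for these libraries. Which Mettl3-CKO cells had lost the gene was not measured. METTL3 is the methyltransferase that adds the N6-methyladenosine (m6A) mark to mRNA. Control pups were of the same litter, and the labels give their genotype only as control. Each library pooled 2 retinas from 2 pups, and each genotype had 1 library. Without replicates, the values compare a pair of libraries, and the 95% intervals reflect counting error alone, not the spread between animals.

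The matrices held 3994 complete cells of the control library and 3109 of the Mettl3-CKO library, with a median of 4520.5 and 5207 UMIs (unique molecular identifiers, each standing for a captured transcript) per cell. Only 5 cell barcodes occurred in both libraries. Mettl3 itself was at 39.5 counts per 1000000 UMIs (CPM; 36.9 to 42.3) over all control cells and 33.1 CPM (30.6 to 35.7) over all Mettl3-CKO cells. In Müller-like cells it was at 37.0 CPM (29.99 to 45.2) and 34.0 CPM (26.1 to 43.5), and these intervals overlapped. In RPC-like cells it was at 30.4 CPM (22.9 to 39.7) and 20.3 CPM (15.6 to 25.9), a fold of 0.67 (0.46 to 0.98). The kit reads the 3′ ends of transcripts, and where the floxed exons lie relative to these reads is not given in the sources used here, so the level of Mettl3 mRNA is a weak check of the labels.

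Cells were clustered without the 10 genes and without 24 other glial genes, so that their levels did not decide which cells were compared. A single cluster of 267 control and 198 Mettl3-CKO cells was called Müller-like. Npy, a marker of the Müller list, led it, and Rlbp1, Slc1a3 and Car14 were also among its 10 leading genes. All 11 Müller markers (Npy, Vcam1, Sox9, Hes1, Hes5, Id1, Id3, Ptn, Lhx2, Abca8a and Gpr37) were detected in it in both libraries. Their summed level was 10663 CPM in control and 8610 CPM in Mettl3-CKO Müller-like cells. Dividing clusters, 3 in number and led by G2/M or S phase genes such as Top2a and Mcm6, were called RPC-like and held 213 control and 348 Mettl3-CKO cells. All Müller markers but Abca8a were detected in RPC-like cells too, so detection alone does not separate these classes. Their summed level there was 6364 CPM in control and 5936 CPM in Mettl3-CKO cells, and 141 and 125 CPM in rod-like cells. Median depth was 9463 and 9005 UMIs in Müller-like cells and 8401 and 9239 UMIs in RPC-like cells.

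Of the 10 genes, 9 had at least 100 UMIs in Müller-like cells over both libraries, the exception being Aqp4. In the Mettl3-CKO library 7 of the 9 were lower, with an interval that did not reach 0 on the log2 scale, and 2, Glul and Clu, were higher. Over all 6639 genes with at least 100 UMIs in these cells, 11.2% were lower and 15.9% higher by the same measure, which is met more readily by genes with many UMIs. Rlbp1 and Vim were lower by at least 1.5-fold, as were 3.0% of all these genes. Clu was higher by at least 1.5-fold, as were 6.22% of all genes. The median log2 ratio (Mettl3-CKO over control) was -0.42 over the 10 genes and 0.03 over the 6639 genes. The 10 genes together took up 0.941% of the UMIs of control Müller-like cells and 0.675% of those of Mettl3-CKO Müller-like cells.

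**Figure D1:**
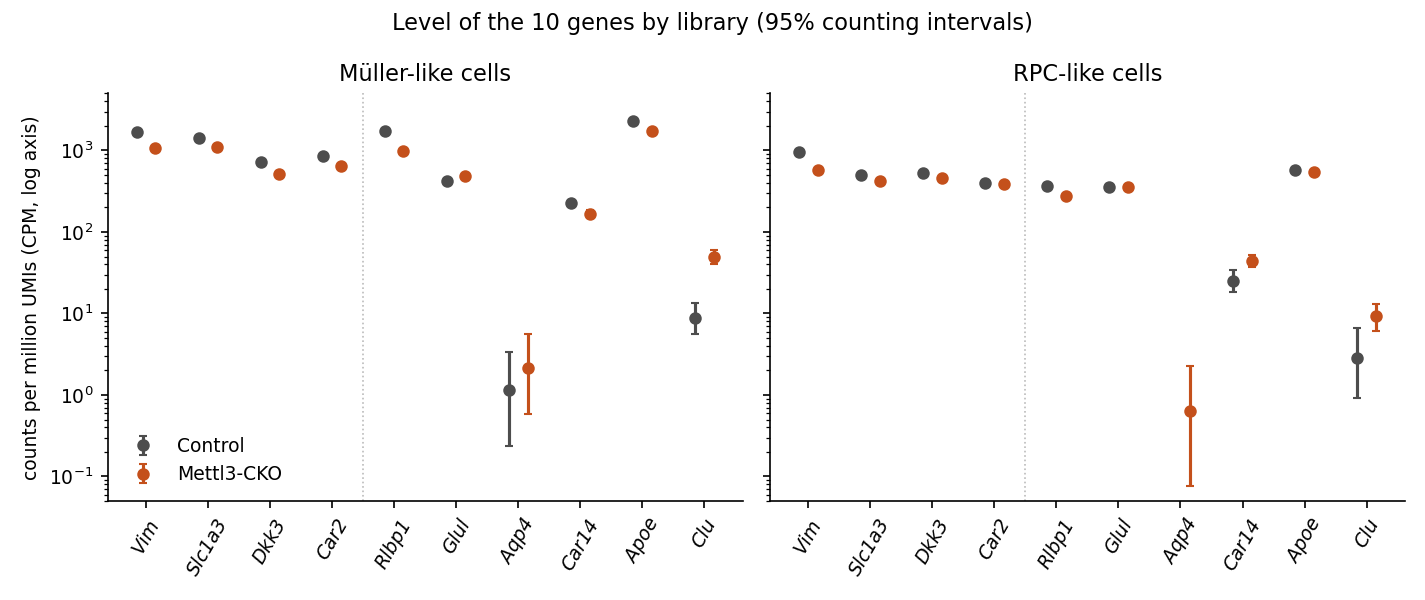
Level of each of the 10 genes in control (grey) and Mettl3-CKO (orange) cells, as CPM of the class on a log axis, in Müller-like (left) and RPC-like (right) cells. Points are library sums, bars are 95% Poisson intervals, and the dotted line separates early glial from late functional genes. Grey lies above orange for 7 genes on the left, Clu shows the widest gap in the other direction, and Aqp4 has no control point on the right because it had no UMI there.

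Among the early glial genes, Vim encodes vimentin, the intermediate filament protein of both progenitors and Müller glia (ENSMUSG00000026728, GRCm38 chr2:13573927-13582826, plus strand, 9 exons). Vim was at 1705 CPM (1655 to 1756) in control and 1069 CPM (1022 to 1117) in Mettl3-CKO Müller-like cells, a log2 ratio of -0.67 (-0.75 to -0.60). Slc1a3 encodes the glutamate transporter GLAST (ENSMUSG00000005360, chr15:8634124-8710764, minus strand). Slc1a3 was at 1413 CPM (1368 to 1460) and 1106 CPM (1059 to 1155), a log2 ratio of -0.35 (-0.43 to -0.28). Dkk3 encodes a secreted protein of the Dickkopf family (ENSMUSG00000030772, chr7:112116017-112159057, minus strand). Its level was 726 CPM (693 to 759) in control and 520 CPM (487 to 553) in Mettl3-CKO cells, a log2 ratio of -0.48 (-0.60 to -0.37). Car2 encodes a cytosolic carbonic anhydrase, which interconverts carbon dioxide and bicarbonate (ENSMUSG00000027562, chr3:14886273-14900770, plus strand). Car2 was at 861 CPM (825 to 897) and 647 CPM (611 to 685), a log2 ratio of -0.41 (-0.51 to -0.31). In these sums over the class, all 4 early genes were therefore lower in the Mettl3-CKO library, and the intervals of the libraries did not overlap for any of them. Within the 4 subclusters compared below, the log2 ratio had an interval below 0 in 4 for Vim, 3 for Slc1a3, 1 for Dkk3 and 0 for Car2.

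The late functional genes did not share a direction. Rlbp1 encodes the retinaldehyde-binding protein CRALBP of the visual cycle (ENSMUSG00000039194, chr7:79374870-79387048, minus strand, 9 exons). It was at 1737 CPM (1687 to 1789) in control and 987 CPM (942 to 1034) in Mettl3-CKO Müller-like cells, a log2 ratio of -0.82 (-0.89 to -0.74) and the lowest of the 10. Apoe, a lipid carrier, was at 2312 CPM (2254 to 2371) and 1717 CPM (1658 to 1778), a log2 ratio of -0.43 (-0.49 to -0.37). Car14, a membrane-bound carbonic anhydrase, was at 226 CPM (208 to 245) and 168 CPM (150 to 188), a log2 ratio of -0.42 (-0.62 to -0.22). Glul, the glutamine synthetase that converts the glutamate taken up by Müller glia, went the other way. Glul was at 424 CPM (399 to 450) in control and 483 CPM (452 to 516) in Mettl3-CKO cells, a log2 ratio of 0.19 (0.06 to 0.32), the smallest difference among the 9 genes. With each library clustered on its own, the ratio of Glul was 0.09 (-0.02 to 0.20), an interval that included 0.

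Clu, a secreted chaperone, was scarce in control Müller-like cells, with 23 UMIs or 8.87 CPM (5.62 to 13.3). In Mettl3-CKO Müller-like cells it had 92 UMIs or 49.7 CPM (40.1 to 60.9), a log2 ratio of 2.49 (1.81 to 3.21). The water channel gene Aqp4 (ENSMUSG00000024411) had 3 UMIs in control and 4 UMIs in Mettl3-CKO Müller-like cells, so a difference was not detectable at this depth. Of the late genes that could be compared, 3 were thus lower and 2 higher in the Mettl3-CKO library. Apoe (ENSMUSG00000002985, chr7:19696109-19699188, minus strand), Clu (ENSMUSG00000022037, chr14:65968483-65981547, plus strand), Car14 (ENSMUSG00000038526, chr3:95897768-95904691, minus strand) and Glul (ENSMUSG00000026473, chr1:153899944-153909723, plus strand) are positions of GENCODE on GRCm38. Car14 overlaps Aph1a and Glul overlaps Teddm2, both on the opposite strand. On their own strand, Glul overlaps the microRNA gene Mir8114 and Slc1a3 the predicted gene Gm37310.

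The paper found retinal m6A peaks to be enriched for GGACU. The principal transcript of each gene was therefore searched for this motif in DNA letters, GGACT, on the sense strand. Other sequences were not searched, so a stretch without GGACT may still carry m6A. The motif was common: 87.1% of the principal transcripts of 21729 protein-coding genes held it, 71.4% in the coding sequence, with a median of 1.02 motifs per kilobase (quartiles 0.559 and 1.52). Among the 10 genes the density ran from 0.710 (Apoe) to 1.68 (Car2) motifs per kilobase, Rlbp1 being at 0.934 and Vim at 0.912. The coding sequence held it in 8 of the 10, Rlbp1 and Apoe being the others. The motif nearest to the stop codon within the coding exons is printed in capitals with flanking coding bases, for an early and lower gene (Vim), for both carbonic anhydrases and for Glul, which was not lower. The paper mapped m6A in other retinas and reports peaks enriched near the stop codon, but its peaks on these genes were not looked up here. The sites below are descriptions of letters in the reference, since m6A itself was not measured in these libraries.
Vim, chr2:13574673-13574697, plus strand: aagactcggtGGACTtctcgctggc
Car2, chr3:14897960-14897984, plus strand: ctggaaacttGGACTactggacata
Car14, chr3:95900336-95900360, minus strand: gcacctgggtGGACTgccccgaaaa
Glul, chr1:153908030-153908054, plus strand: cgcattccccGGACTgtcggccagg
Only in Glul and Car2, of these 4, did the motif lie within the last 300 coding bases, 135 and 212 bases before the stop codon, whereas in Vim it lay 1142 bases before it. A motif in that last stretch was found in 28.1% of all principal transcripts and in 3 of the 10 genes, the remaining one being Slc1a3.

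RPC-like cells, the population from which Müller glia arise, expressed the same genes at lower levels, and most differed less between the libraries. Of the 8 genes with at least 100 UMIs there, 4 were lower and 1 higher in the Mettl3-CKO library with an interval that did not reach 0, and 3 had an interval that included 0. Over all 6996 genes with that many UMIs, 9.89% were lower and 13.8% higher by this measure. The median log2 ratio was -0.14 over the 8 genes, -0.09 with Clu added, whose ratio rested on few UMIs, and 0.04 over all genes tested. Vim was the only gene lower by at least 1.5-fold, as were 1.46% of all genes, and among the 8 genes Car14 was the only one higher by that much, as were 5.85%.

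Vim was furthest below control in RPC-like cells, at 947 CPM (902 to 993) in control and 568 CPM (542 to 595) in Mettl3-CKO cells, a log2 ratio of -0.74 (-0.84 to -0.64). The 3 RPC-like clusters gave log2 ratios of -0.80 (G2/M-led), -0.62 (S-led) and -0.72 (shallow) for Vim, so its difference was present in each. Rlbp1 was at 364 CPM (337 to 394) and 277 CPM (258 to 295), a log2 ratio of -0.40 (-0.55 to -0.25). Slc1a3, at 495 and 425 CPM, and Dkk3, at 527 and 459 CPM, were lower by log2 ratios of -0.22 (-0.34 to -0.09) and -0.20 (-0.32 to -0.08). By cluster, Dkk3 gave -0.31 (-0.46 to -0.15, G2/M-led), -0.09 (-0.29 to 0.11, S-led) and -0.27 (-1.06 to 0.52, shallow). With cells thinned to 1000 UMIs the ratio of Dkk3 turned to 0.32. Glul was at 357 and 352 CPM (log2 ratio -0.02, -0.16 to 0.12), Car2 at 401 and 384 CPM (-0.06, -0.20 to 0.07) and Apoe at 583 and 550 CPM (-0.09, -0.20 to 0.03), and these intervals included 0.

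Car14 ran against its direction in Müller-like cells. In RPC-like cells Car14 was at 25.4 CPM (18.5 to 33.9, 45 UMIs) in control and 44.0 CPM (37.0 to 52.0, 139 UMIs) in Mettl3-CKO cells, a log2 ratio of 0.80 (0.30 to 1.31). Clu had 5 UMIs in control and 29 UMIs in Mettl3-CKO RPC-like cells, a log2 ratio of 1.71 (0.32 to 3.43). Aqp4 had 0 and 2 UMIs there, and no fold is given.

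**Figure D2:**
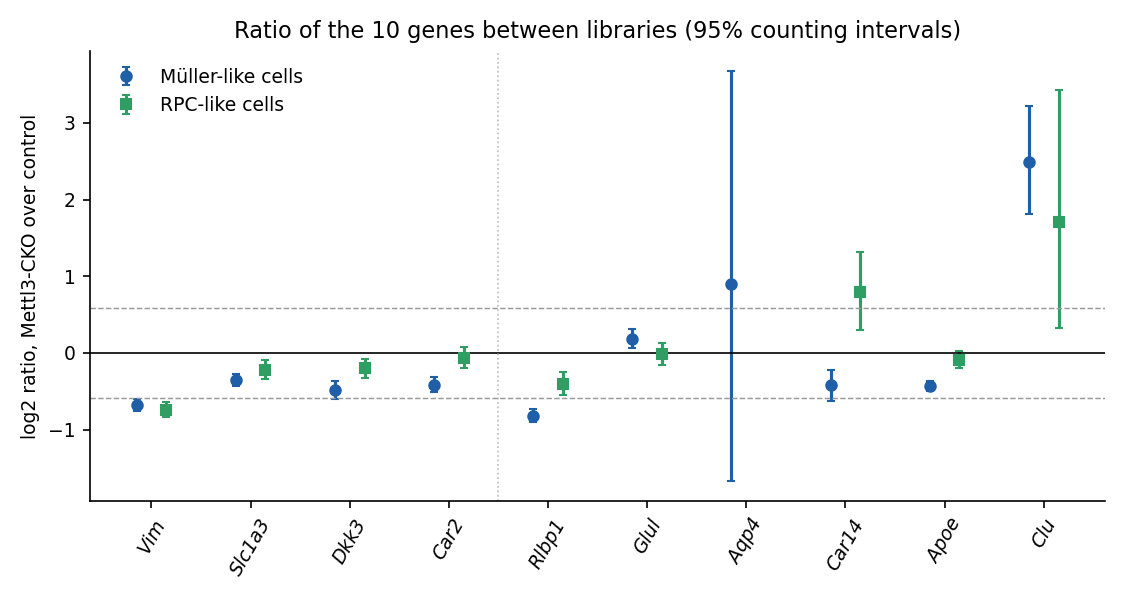
Log2 ratio of the Mettl3-CKO over the control level for each gene in Müller-like (blue circles) and RPC-like (green squares) cells, with 95% counting intervals. Dashed lines mark 1.5-fold in either direction and the dotted line separates early from late genes. Vim is below the lower dashed line in both classes, Rlbp1 only in Müller-like cells, and the points of Car14 lie on opposite sides of 0.

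The early and the late genes were compared as groups. Levels in control RPC-like cells followed this grouping only in part. The early genes were there at 35.0% (Slc1a3) to 72.6% (Dkk3) of their Müller-like level. Of the late genes, Rlbp1 (21.0%), Car14 (11.2%), Apoe (25.2%) and Clu (31.8%, from 5 UMIs) lay below that range, but Glul lay above it at 84.1%. In Müller-like cells the median log2 ratio was -0.45 over the 4 early genes, which ranged from -0.67 to -0.35, and -0.42 over the 5 late genes with at least 100 UMIs, which ranged from -0.82 to 2.49. With Aqp4 and its 7 UMIs included, the late median exceeded the early median by 0.33, a difference that thus rested on a gene with almost no signal. In RPC-like cells the medians were -0.21 for the early genes and -0.05 for the 4 late genes tested. A lower level restricted to the late genes was not seen, and the early genes were the more uniform group.

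Per cell, with each cell thinned to 1000 UMIs so that depth was equal, control Müller-like cells held a median of 4 early-gene UMIs (range 0 to 16) and 4 late-gene UMIs (0 to 13). Mettl3-CKO Müller-like cells held a median of 3 early-gene UMIs (0 to 11) and 3 late-gene UMIs (0 to 13). The share of cells under the control median was 57.1% in Mettl3-CKO against 36.3% in control cells for early genes, and 61.6% against 37.5% for late genes. The distributions overlapped over nearly their whole range. In these thinned cells a median of 5 of the 10 genes was detected per control cell and 4 per Mettl3-CKO cell.

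**Figure D3:**
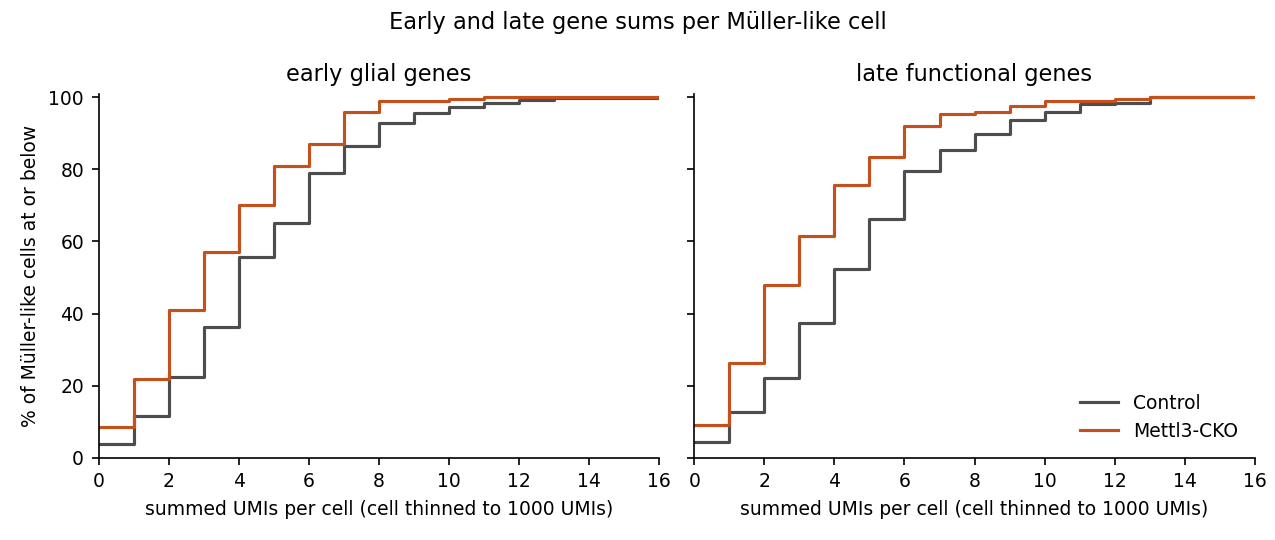
Cumulative share of Müller-like cells (in %) by the summed UMIs of the early glial genes (left) and late functional genes (right), each cell thinned to 1000 UMIs, for control (grey) and Mettl3-CKO (orange). The orange curve lies to the left of the grey curve in both panels over most of the range, with medians of 3 and 4 UMIs.

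Gene by gene, the share of thinned Müller-like cells with a UMI of Rlbp1 was 78.7% (73.2 to 83.4) in control and 50% (42.8 to 57.2) in Mettl3-CKO cells. For Vim it was 71.9% (66.1 to 77.2) and 55.1% (47.8 to 62.1). In rod-like cells, which should lack both genes, the thinned shares were 1.57% and 1.12% for Rlbp1 and 2.77% and 1.62% for Vim, at median depths of 4090.5 and 4382 UMIs before thinning. Without thinning, a UMI of Rlbp1 was found in 99.6% of control and 94.4% of Mettl3-CKO Müller-like cells, so that nearly all cells of the class held some Rlbp1 in both libraries. The thinned share for Clu was 1.12% (0.232 to 3.25) in control and 6.57% (3.54 to 10.97) in Mettl3-CKO Müller-like cells, but rod-like cells reached 2.02% and 2.74%, so the control value was not above the level in rod-like cells.

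Müller-like cells were not uniform, and the 10 genes varied between 5 subclusters found without them. A Npy-led subcluster held 114 control and 28 Mettl3-CKO cells. One led by Gadd45g and Dll1, genes of neurogenic commitment, held 87 and 19 cells, one led by Sfrp2 and Mcm genes held 51 and 40 cells, and a small one led by rod genes such as Nr2e3 and Sag held 12 and 20 cells. The last, led by the p53 target genes Cdkn1a and Phlda3, held 3 control and 91 Mettl3-CKO cells, 46.0% of the Mettl3-CKO Müller-like cells. With 1 library per genotype, a subcluster made up almost wholly of 1 library cannot be told apart from an effect of that library.

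Rlbp1 depended on the subcluster. In the Npy-led subcluster it was at 2047 CPM (1965 to 2132) in control and 2098 CPM (1937 to 2269) in Mettl3-CKO cells, a log2 ratio of 0.04 (-0.09 to 0.16). It was at 1672 and 1339 CPM in the Gadd45g-led, 1259 and 1103 CPM in the Sfrp2-led and 1236 and 849 CPM in the rod-gene-led subcluster. In the Cdkn1a-led subcluster, 91 Mettl3-CKO cells gave 515 CPM (467 to 566), while the remaining 107 cells of that library gave 1377 CPM (1306 to 1451). Without this subcluster the log2 ratio of Rlbp1 was -0.34 (-0.43 to -0.25) in place of -0.82.

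Vim differed less between subclusters. In the Npy-led subcluster Vim was at 2093 CPM in control and 1442 CPM in Mettl3-CKO cells, a log2 ratio of -0.54 (-0.69 to -0.39), and it was lower, with an interval below 0, in 4 of the 4 subclusters that held at least 10 control cells. Apoe was also lower in 4 of these 4, with log2 ratios from -0.35 to -0.17. Slc1a3 and Dkk3 were below control in all 4 with intervals below 0 in 3 and 1 of them, and Car14 was below control in all 4 with intervals that included 0. Car2, from -0.21 to 0.07, had an interval that included 0 in each of them. Glul was higher, with an interval above 0, in 3 of the 4.

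Clu reached 89.6 CPM (70.5 to 112) in the Cdkn1a-led Mettl3-CKO cells. The remaining Müller-like cells of that library had 16.8 CPM (9.76 to 26.8), and control cells 8.87 CPM. Without the Cdkn1a-led subcluster its log2 ratio was 0.97 (-0.03 to 1.95), an interval that included 0. The same Cdkn1a-led cells had Dkk3 at 405 CPM, against 614 CPM in the other Mettl3-CKO cells, a log2 ratio of -0.60 (-0.80 to -0.41). Car14, at 198 and 144 CPM (0.46, 0.13 to 0.79), and Apoe, at 1809 and 1641 CPM (0.14, 0.04 to 0.24), were higher in the Cdkn1a-led than in the other Mettl3-CKO cells. For Slc1a3, at 1116 and 1098 CPM, and Glul, at 462 and 500 CPM, as for Car2 and Vim, the interval of this ratio included 0.

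**Figure D4:**
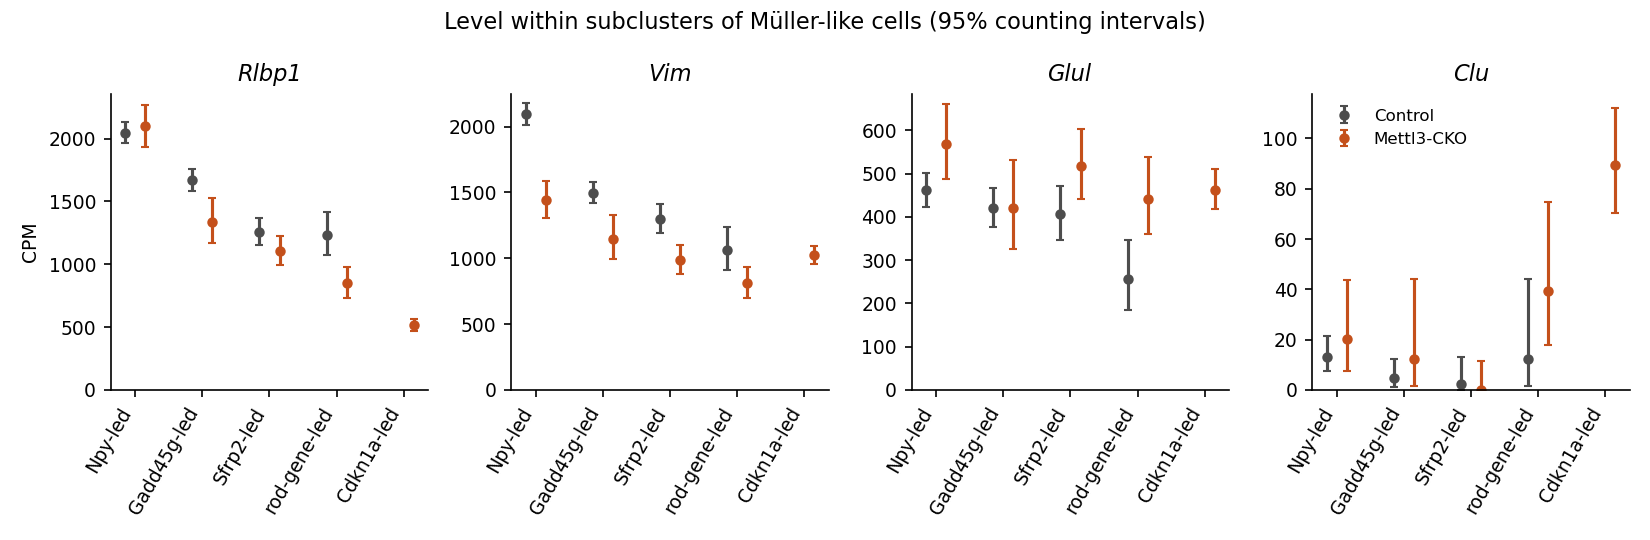
Level in CPM of Rlbp1, Vim, Glul and Clu in control (grey) and Mettl3-CKO (orange) cells of the 5 subclusters of Müller-like cells, with 95% Poisson intervals. Points for fewer than 10 cells are not drawn, so the Cdkn1a-led subcluster has no control point. Rlbp1 is at 2047 and 2098 CPM in the Npy-led subcluster, while Vim is lower in Mettl3-CKO cells of every subcluster with both points.

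The Mettl3-CKO library held cells with Xist UMIs and cells with UMIs of Y-linked genes, so its cells could be separated by sex, whereas the control library gave almost no Xist UMI. Among Mettl3-CKO Müller-like cells, 103 carried Xist and 70 carried Y-linked UMIs. Against all control Müller-like cells, Rlbp1 had a log2 ratio of -0.81 (-0.92 to -0.71) in the Xist cells and -0.77 (-0.89 to -0.65) in the Y-linked cells, and Vim of -0.66 and -0.64. In both sets of cells 7 of the 9 genes were below and 2 above control. The shares over all genes were not computed for these sets. Slc1a3, Apoe and Clu differed between the sets, with intervals that did not overlap. Slc1a3 was at 1040 CPM (975 to 1107) in the Xist cells and 1197 CPM (1116 to 1283) in the Y-linked cells. Apoe was at 1572 CPM (1493 to 1655) and 2041 CPM (1935 to 2152), and Clu at 24.5 CPM (15.5 to 36.8) and 73.0 CPM (54.0 to 96.4). The exceptions whose interval included 0 were Car14 in the Xist cells (-0.48 to 0.02) and Glul in the Y-linked cells (-0.12 to 0.26). Both sets were compared with the same control cells, and with 2 pups pooled each set stands for 1 pup.

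Levels in other classes were used to see how much of the signal could be RNA free in the droplets. In control rod-like cells Rlbp1 was at 1.02%, Slc1a3 at 1.85%, Car14 at 1.12%, Dkk3 at 0.968% and Vim at 1.5% of their level in Müller-like cells, and in Mettl3-CKO rod-like cells the same genes were at 0.930%, 1.70%, 1.0%, 1.67% and 1.36%. For these 5 genes the signal of Müller-like cells was thus far above that of rods in both libraries. In amacrine-like cells the shares were larger and differed between the libraries, at 20.4% and 31.1% for Dkk3, 2.97% and 13.3% for Slc1a3 and 2.03% and 8.67% for Vim. There Slc1a3 went from 41.9 to 147 CPM (log2 ratio 1.81, 1.15 to 2.53) and Vim from 34.7 to 92.7 CPM (1.42, 0.66 to 2.24), the direction opposite to that in Müller-like cells. Glul (13.6% and 10.4%), Car2 (27.2% and 24.6%) and Apoe (13.2% and 28.3%) had larger shares in rod-like cells, so the ratio between genes was not the one of Müller-like cells. Clu was higher in control rod-like than in control Müller-like cells, at 21.8 CPM (18.1 to 26.0) against 8.87 CPM.

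Apoe had by far its highest level in microglia-like cells, at 25316 CPM in control and 31440 CPM in Mettl3-CKO cells. Glul was also higher in control microglia-like than in control Müller-like cells, at 770 CPM (657 to 897) against 424 CPM. In Mettl3-CKO microglia-like cells Glul was at 435 CPM (358 to 525), a log2 ratio of -0.82 (-1.18 to -0.47), the direction opposite to that in Müller-like cells. In rod-like cells Apoe went from 304 CPM (290 to 319) to 485 CPM (464 to 507), the direction opposite to that in Müller-like cells. Clu was highest in cone-like cells among the named classes, at 70.0 CPM in control and 86.3 CPM in Mettl3-CKO cells, and in an unnamed cluster of mixed leading genes (Ttr, Rgs5 and Pdgfra) it was at 260 and 147 CPM. Microglia markers summed to 15.8 CPM in control and 32.4 CPM in Mettl3-CKO Müller-like cells, with Csf1r at 0 in both, and rod markers to 553 CPM and 994 CPM, with Gnat1 at 0 in Mettl3-CKO cells. RPC markers summed to 112 CPM and 172 CPM, with Ccnb1 at 0 in Mettl3-CKO cells, and 12 and 17 Müller-like cells were predicted doublets. In RPC-like cells rod markers summed to 186 CPM and 467 CPM, with none at 0. Their part in the differences was not tested as a whole. Without the rod-gene-led subcluster the log2 ratios of Rlbp1 (-0.81), Vim (-0.66) and Clu (2.56) were about as large as with it, and without predicted doublets they were -0.79, -0.65 and 2.59.

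**Figure D5:**
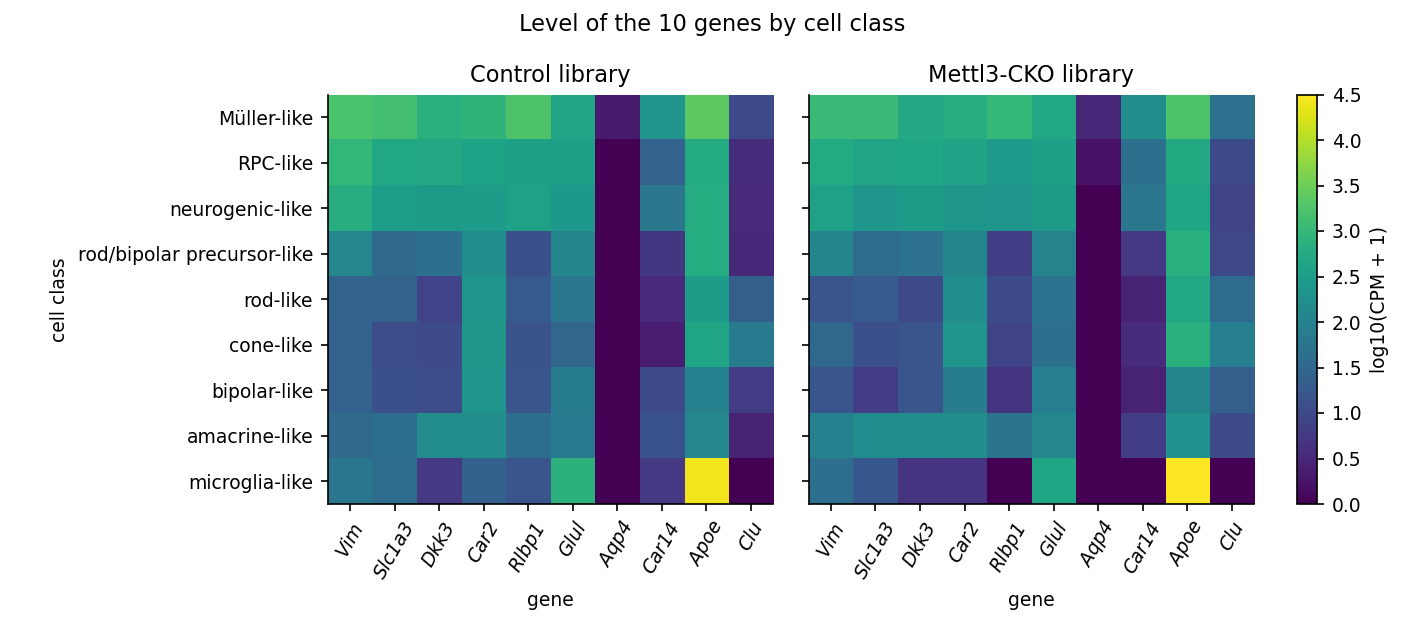
Level of the 10 genes, as log10(CPM + 1) on a colour scale, in each named cell class of the control (left) and Mettl3-CKO (right) library. Rlbp1, Slc1a3, Dkk3 and Vim are high in the upper rows (Müller-like, RPC-like and neurogenic-like), while Car14 is high only in Müller-like cells. Car14 is at 25.4 and 44.0 CPM in RPC-like and at 60.7 and 58.9 CPM in neurogenic-like cells. These 5 genes are low in rods, cones and bipolar cells, while Apoe peaks in microglia-like cells and Aqp4 is near 0 throughout.

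The order of the named classes by Rlbp1 in control was Müller-like (1737 CPM), then neurogenic-like (373 CPM, 344 to 404) and RPC-like (364 CPM, 337 to 394), whose intervals overlapped, then amacrine-like (41.9 CPM), with rod-like, cone-like, bipolar-like, microglia-like and precursor-like cells at 17.7 CPM or less. In the Mettl3-CKO library RPC-like (277 CPM) came before neurogenic-like cells (229 CPM), and their intervals did not overlap. Among the named classes Vim in control was highest in Müller-like cells, then in RPC-like (947 CPM) and neurogenic-like cells (643 CPM, 604 to 682). In neurogenic-like cells both genes were lower in the Mettl3-CKO library, by log2 ratios of -0.70 for Rlbp1 and -0.76 for Vim. A shallow unnamed cluster with a median of 1652 UMIs in control and 985.5 in Mettl3-CKO cells, led by Crym, Rlbp1, Dbi and Vim, also held these transcripts. There Rlbp1 was at 2263 CPM in control and 1139 CPM in Mettl3-CKO cells, and Vim at 2638 and 1405 CPM. For both genes the direction was therefore the same in Müller-like, RPC-like, neurogenic-like and these shallow cells. It was also the same in rod-like cells, which should lack both genes, at low levels (Rlbp1 -0.94, Vim -0.82). In a second shallow unnamed cluster, led by Fam19a1 and Miat, the intervals included 0 for Rlbp1 (-0.12, -0.80 to 0.53) and Vim (-0.59, -1.30 to 0.09). In the unnamed cluster led by Ttr, Rlbp1 was lower (-1.37), but Vim was higher, at 1993 and 3655 CPM (0.88, 0.74 to 1.01).

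The other 24 glial genes of a fixed list were described in the same way. In Müller-like cells, of the 18 with at least 100 UMIs, 10 were lower and 3 higher in the Mettl3-CKO library with an interval that did not reach 0, and 5 had an interval that included 0, against 11.2% and 15.9% of all genes, with a median log2 ratio of -0.30. By at least 1.5-fold, 3 were lower and 0 higher, against 3.0% and 6.22% of all genes. Lowest were the tetraspanin gene Cd9, at 545 and 292 CPM (log2 ratio -0.90, -1.05 to -0.76), the acyl-CoA-binding protein gene Dbi, at 7763 and 4726 CPM (-0.72, -0.75 to -0.68), and the endothelin receptor gene Ednrb, at 42.0 and 27.5 CPM (-0.61, -1.12 to -0.12). Highest were the metallothionein genes Mt2, at 134 and 193 CPM (0.52, 0.31 to 0.74), and Mt1, at 557 and 791 CPM (0.51, 0.40 to 0.61), and the potassium channel gene Kcnj10, at 32.4 and 45.4 CPM (0.49, 0.03 to 0.94). Gfap, a marker of reactive glia, had no UMI in Müller-like cells of either library. In RPC-like cells the median of the 16 genes tested was 0.08, with Cd9 (-0.77) and Dbi (-0.72) again below control.

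Over 46 profiles (clusters with at least 20 cells, per library), the 5 genes outside the list whose level followed the mean of the 10 genes most closely were Pdpn (Pearson r = 0.94), Id3 (0.94), Sulf1 (0.94), Ndrg2 (0.94) and Prss23 (0.93). These profiles share libraries, and no p-value is given. The Müller-like clusters of both libraries were among them, so the difference between the libraries had a part in choosing these genes. Among the 10 genes, Rlbp1 followed the mean of the other 9 most closely (r = 0.91), with Car14 (0.89), Slc1a3 (0.87), Vim (0.85) and Dkk3 (0.84) next. Apoe (0.18) and Clu (-0.11) followed it least, and among the named classes their highest levels lay outside Müller-like cells in both libraries. In control, that of Glul (0.74) did so too.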

How the data were processed

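The deposited files hold raw UMI counts per gene and cell, not normalized. Per the study's methods, reads were trimmed with fastp, and the authors used Cell Ranger 3.1.0 for alignment to GRCm38 (mm10) and UMI counting and Seurat 3.1 downstream. The deposited barcode and gene tables name the cells and the 30905 genes. Whether the counting used the strand is not given in the sources used here. Of 5995 control and 6992 Mettl3-CKO barcodes, 3994 and 3109 had complete cells in the matrices as read here, and the others were not analysed here. The filter stated by the study (over 200 genes, under 20% mitochondrial UMIs) was missed by 237 control cells and 86 Mettl3-CKO cells, and 13 mitochondrial genes were present, whose UMIs were left out. Totals were then 20955138 and 19957693 UMIs.

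Cells were normalized to 10000 UMIs and log-transformed. Up to 2000 highly variable genes and 10 principal components, without the 10 genes, 24 other glial genes, Mettl3 and sex-linked genes, were clustered with Leiden at resolution 1 and 20 neighbours, and Müller-like cells again at 0.5 (Python 3.11.15 with scanpy 1.11.5, leidenalg 0.10.2, scipy 1.17.1, scikit-learn 1.9.0 and numpy 2.4.6). Clusters were named from marker lists, needing at least 3 markers raised 1.5-fold. The condition that leading markers of the named list outnumber those of all other lists together was set after the clusters had been seen. No cell was left out. Predicted doublets, 92 and 79 cells, were left out only in an alternative. Cells carried Xist with at least 2 Xist UMIs and no Y-linked UMI, and Y-linked UMIs with at least 1 and no Xist UMI.

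UMIs were summed per class and library and given as CPM with exact Poisson intervals. Ratios carry exact conditional binomial intervals and shares exact Clopper-Pearson intervals, all at 95%. The computation of ratios and intervals was tested on simulated counts that held counting error alone. That test says nothing about the spread between cells, animals or libraries. No p-value was computed, since cells of 1 library are not replicates. The genes, lists, markers and comparisons were chosen with earlier results of these data known. Named were the 10 genes, the 3 highest and 3 lowest of the other glial genes, and the 5 genes with the most similar profile, by log2(CPM + 10). Positions and transcripts are from GENCODE on GRCm38.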

Additional observations from a re-analysis of the deposited data

Results flagged for a closer look

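Outside the main comparison, Xist, the RNA of the inactive X chromosome, had 1.53 CPM over all control cells and 1544 CPM over all Mettl3-CKO cells. By this measure the control library held cells of male pups and the Mettl3-CKO library cells of both sexes, so sex is not balanced between the genotypes. Among Mettl3-CKO Müller-like cells with Y-linked UMIs, which match the control library in sex, Rlbp1 and Vim were lower by log2 ratios of -0.77 and -0.64 and Clu was higher by 3.04.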

How the results depend on the processing

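With 1 library per genotype, no alternative measures the spread between animals, and Aqp4 and Clu in RPC-like cells rest on few UMIs. The median log2 ratio of the 10 genes in Müller-like cells (-0.42) was below 0 under all 17 alternatives, from -0.52 to -0.20, the last in the Npy-led subcluster alone, where that of Rlbp1 turned to 0.036. The late minus early difference of medians (0.33) did not hold its size: it was 0.0035 without the cells that missed the stated filter, 0.062 without predicted doublets, 0.15 for Mettl3-CKO cells with Y-linked UMIs, 0.024 with cells thinned to 1000 UMIs, 0.023 without the rod-gene-led subcluster, 0.015 without the Cdkn1a-led subcluster and 0.0016 with Car2 counted as late and Clu as early. In the first 6 of these Aqp4 had 3 UMIs or fewer in both libraries and did not enter the median, but it was also left out for Mettl3-CKO cells with Xist UMIs (0.29) and in the Npy-led subcluster alone (0.27). The median in RPC-like cells (-0.09) turned to 0.027 with per-cell means of CPM, and that of Dkk3 there to 0.32 with thinned cells. The cause was not tested. Median-of-ratios scaling lowered the log2 ratios by 0.03 in Müller-like and 0.04 in RPC-like cells. Vim kept its direction under all 17 and 14 alternatives in the respective classes. The settings on subclusters and on shallow clusters were chosen after seeing the data.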
